A study of Homo sapiens with 6 samples.

Results

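The genes examined here encode the subunits of the mitochondrial respiratory chain and ATP synthase. They were taken by gene symbol: NDUFA, NDUFB, NDUFC, NDUFS and NDUFV genes for complex I, SDHA to SDHD for complex II, UQCR genes and CYC1 for complex III, CYCS for cytochrome c, COX4 to COX8 genes for complex IV, ATP5 genes for complex V, and the protein genes of mitochondrial DNA. This gave 113 members among 20388 gene symbols, of which 100 were nuclear-encoded and 13 mitochondrially encoded. The symbols also took in 8 complex I assembly factors (NDUFAF1 to NDUFAF8), the supercomplex factor COX7A2L, the ATP synthase inhibitor ATP5IF1 and 2 readthrough transcripts. NDUFA4 and its paralog NDUFA4L2 were counted with complex IV, of which NDUFA4 is now known to be a subunit.

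The RNA sequenced came from MHCC-97H cells, a long-established line from a human hepatocellular carcinoma, labelled as wild type. In 3 libraries the cells had received the solvent DMSO, and in 3 they had received GK921, an inhibitor of transglutaminase 2, at 2 µM; both lasted 24 h. The series title links transglutaminase 2 to histone serotonylation and MYC signalling, and the comparison asks how the transcriptome of the line differed after the inhibitor. Whether replicate libraries were grown as separate cultures is not stated, so the p-values reflect only how these 6 libraries vary, which may be technical variation.

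The respiratory chain passes electrons from NADH through complex I, and from succinate through complex II, to coenzyme Q. Complex III hands them to cytochrome c and complex IV to oxygen, while protons are pumped across the inner mitochondrial membrane. Complex V, the ATP synthase, uses the returning protons to make ATP. Complexes I, III, IV and V each combine nuclear-encoded subunits with a few core subunits made inside the mitochondrion, so their assembly draws on 2 genomes. Liver cells are rich in mitochondria, whereas many liver tumour lines also rely on glycolysis.

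Levels are taken as FPKM, a gene's fragments per transcript length and mapped fragments, from the name of the deposited table alone. Their sums, 821498 to 836182 per library, do not tell FPKM from TPM over a larger set of genes. With read totals not given in the sources used here, depth was compared through the commonest ratio between low values. Depth relative to the first DMSO library was 0.877 to 1 in DMSO and 0.763 to 0.865 after GK921. Across tested genes the correlation was 0.993 to 0.995 within a group and 0.914 between groups. The epithelial keratins KRT8 and KRT18 were abundant and HNF4A, a hepatocyte transcription factor, stood at 9.11 ± 1.14 FPKM in DMSO, but the other 6 of 9 liver markers, ALB, AFP and SERPINA1 among them, were each under 1 FPKM on average. Of the 14 leukocyte, endothelial and fibroblast markers, 4 reached a mean of 1 FPKM. Summed levels were at most 1.58 FPKM in DMSO and 4.06 after GK921 for the leukocyte list, 5.77 and 7.85 for the endothelial list, and 9.22 and 1.45 for the fibroblast list. Of the fibroblast sum, DCN held 8.34 ± 0.969 FPKM in DMSO and 0.953 ± 0.196 after GK921. The summed liver list was at 2382 to 2387 FPKM in DMSO and 1869 to 1928 after GK921, nearly all of it keratins. The part of these shifts in the results was not tested. The endothelial gene CDH5 was listed at 0 in every library.

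Most respiratory chain genes fell after GK921, by modest amounts. Genes were called when the limma adjusted p was under 0.05 on log2(FPKM + 1), among 11573 genes averaging 1 FPKM or more over the libraries. Of 105 tested members, 70 were lower, 14 higher and 21 not called. Over all tested genes 29.2% were lower and 46.8% higher, and 75.9% were called either way. The median log2 change was -0.28 over the members and 0.16 over all tested genes, and 91 of the 105 members lay below the median gene. Most falls were smaller than 2-fold: 4 members (NDUFS5, COX7B, COX7B2 and ATP5MC3) fell by at least 1 log2 unit, as did 6.24% of all tested genes, and 1 member (COX6B2) rose by as much, as did 9.87%. The 3 GK921 values all lay below the 3 DMSO values for 68 members and above them for 15, against 30% and 48% of tested genes.

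The members are abundant, and abundant genes fell more often than others. Among all genes averaging 50 FPKM or more, 43.5% were lower and the median log2 change was -0.0058. The 70 nuclear members above that level had a median of -0.36, with 52 lower (74.3%) and 6 higher. Among all genes of at least 200 FPKM, 54.1% were lower and the median was -0.14, and among the 23 nuclear members at that level 17 were lower (73.9%), with a median of -0.26. These counts are descriptions, since the members were not drawn independently of earlier results.

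The scale of the comparison bears on the rises more than on the falls. With median-ratio scaling, which moves the median gene from 0.16 to -0.004, 83 members were lower and 6 higher, against 37.9% and 36.4% of genes. With quantile normalization 73 were lower and 17 higher, against 35.3% and 37.9% of genes. Of the 70 falls, 66 were called lower on the deposited scale, with these 2 scalings and with scaling to the nuclear genes. Of the 14 rises, 5 were called higher on all of these scales: NDUFAF1, NDUFAF2, COX5B, COX6B2 and COX7A2L. Of these, COX6B2 had values near 0 and shares all its coding bases with another coding gene on the same strand. All fold changes below are on the deposited scale, and subtracting 0.16 gives the log2 change relative to the median gene.

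**Figure D1:**
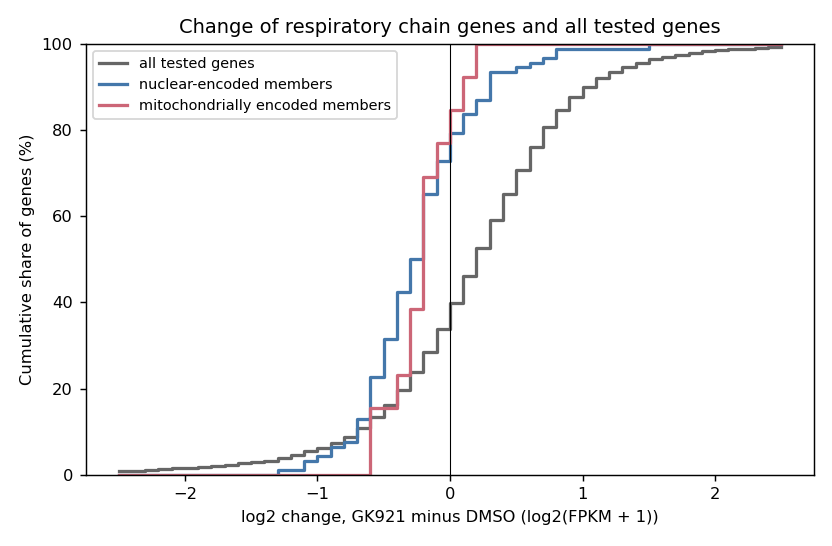
Cumulative share of genes (vertical axis, %) by log2 change after GK921 (horizontal axis, log2(FPKM + 1) scale, in steps of 0.1), for all tested genes (grey), tested nuclear-encoded members (blue) and mitochondrially encoded members (red). Both member curves lie left of the grey curve near 0, with medians of -0.30 and -0.26 against 0.16, and the members lack the long tails of the grey curve.

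Complex I couples NADH oxidation to proton pumping. Its 7 nuclear core subunits, which carry the flavin and iron-sulfur centres, had lower values in every GK921 library than in any DMSO library. The same held for 30% of all tested genes. By the limma test 6 of the 7 fell, with a median log2 change of -0.39, against 29.2% lower over all tested genes. NDUFS7, which holds the iron-sulfur cluster next to the coenzyme Q site, was at 32.6, 34.6 and 36.6 FPKM in DMSO and 25.3, 22.0 and 23.2 FPKM after GK921. It fell 1.47-fold (log2 change -0.54 ± 0.067 SE, limma adjusted p = 7.55e-05). NDUFV2 of the NADH-oxidizing arm, the most abundant core member, fell from 212.0 ± 6.75 to 159.3 ± 2.55 FPKM (SD, n = 3 per group, as for every mean below). NDUFS3 was the exception to the call, at 58.0 ± 0.58 and 54.5 ± 2.01 FPKM (limma adjusted p = 0.0862), and it was called lower with median-ratio and quantile scaling.

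The accessory subunits of complex I, which surround the core and stabilise it, moved both ways but more often down. Of 29 tested, 14 fell and 7 rose, against 29.2% lower and 46.8% higher over all tested genes. Another 8 were not called, the median log2 change was -0.21, and 21 lay below the median gene. With median-ratio scaling 18 were lower and 1 higher. The largest fall was that of NDUFS5 (chr1:39026318-39034636), an intermembrane-space subunit. It was at 353.9, 358.9 and 323.8 FPKM in DMSO and at 158.3, 159.6 and 177.8 FPKM after GK921. The groups lay far apart, and the fall was 2.09-fold (log2 change -1.06 ± 0.0545 SE, limma adjusted p = 2.18e-07). NDUFC2 fell from 36.1 ± 1.3 to 19.0 ± 1.07 FPKM and NDUFB3 from 133.8 ± 13 to 80.9 ± 6.43 FPKM. NDUFA8 and NDUFB4 fell 1.61-fold and 1.57-fold.

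Among the 7 accessory rises, the 2 largest on the deposited scale were those of NDUFA11, from 2.54 ± 0.586 to 4.07 ± 0.448 FPKM, and NDUFV3, from 22.0 ± 1.29 to 27.2 ± 0.408 FPKM (limma adjusted p = 0.00951 and 0.00141). NDUFA6, NDUFB5 and NDUFS4 each rose 1.21-fold, NDUFA12 1.13-fold and NDUFB1 1.16-fold. With median-ratio scaling NDUFA11 was the 1 accessory member still called higher, and with quantile normalization it was not (limma adjusted p = 0.104). NDUFB1 lost its call without the first DMSO library, the second DMSO library or the first GK921 library (limma adjusted p = 0.0623, 0.0599 and 0.0619). NDUFA1, the most abundant accessory member, was at 350.0 ± 17.9 and 396.3 ± 49.2 FPKM and missed the threshold (limma adjusted p = 0.0696). It was called higher without the second or without the third GK921 library (limma adjusted p = 0.0366 and 0.0449).

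The assembly factors of complex I, which build the enzyme but are not part of it, also moved both ways, with 4 lower, 3 higher and 1 not called. Over all tested genes 29.2% were lower and 46.8% higher. NDUFAF1 (chr15:41387349-41402519), which acts on the membrane arm, was at 11.3, 10.63 and 11.49 FPKM in DMSO and at 19.2, 20.6 and 19.4 FPKM after GK921. NDUFAF2, a late-stage factor, was at 36.0, 31.3 and 33.0 FPKM in DMSO and at 57.4, 55.1 and 58.5 FPKM after GK921. The groups did not overlap for either gene. The rises were 1.77-fold and 1.7-fold (log2 changes 0.77 ± 0.0643 and 0.75 ± 0.0583 SE, limma adjusted p = 5.31e-06 and 3.20e-06). NDUFAF3, the most abundant of them, rose from 116.7 ± 7.68 to 141.1 ± 10.3 FPKM, a call lost with median-ratio scaling (limma adjusted p = 0.194). NDUFAF4, NDUFAF5, NDUFAF6 and NDUFAF8 fell, by 0.47, 0.48, 0.42 and 0.52 on the log2 scale.

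Complex II, succinate dehydrogenase, has no mitochondrially encoded subunit and also serves the citric acid cycle. SDHA, the flavoprotein that oxidizes succinate, fell 1.49-fold from 56.3 ± 2.7 to 37.9 ± 0.287 FPKM (log2 change -0.56 ± 0.0468 SE, limma adjusted p = 5.41e-06). The iron-sulfur subunit SDHB fell 1.36-fold and the membrane anchor SDHC 1.26-fold. SDHD, the other anchor, was at 58.0 ± 2.53 and 54.2 ± 4.82 FPKM with overlapping groups and was not called (limma adjusted p = 0.207), though it was called lower with median-ratio and quantile scaling. The 3 called falls held on all 4 scales, and over all tested genes 29.2% were lower on the deposited scale.

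The nuclear members of complex III moved as one. All 9 tested fell, with non-overlapping groups and a median log2 change of -0.55. Over all tested genes 29.2% were called lower and 30% were lower without overlap. All 9 falls were called with median-ratio scaling and with quantile normalization. UQCR11, the remaining nuclear member, was listed at 0 in every library. The core protein gene UQCRC2 was at 109.7, 111.8 and 107.3 FPKM in DMSO and at 70.5, 66.9 and 72.1 FPKM after GK921. That is a fall of 1.57-fold (log2 change -0.64 ± 0.0402 SE, limma adjusted p = 7.97e-07). UQCRC1, its partner, fell 1.53-fold, UQCR10 1.56-fold, and CYC1, the cytochrome that passes electrons on, 1.44-fold. UQCRB, the most abundant of these nuclear members, fell from 359.9 ± 8.54 to 248.0 ± 5.55 FPKM. UQCRQ had the smallest fall, 1.12-fold (limma adjusted p = 0.0125). UQCRH and UQCRHL encode near-identical hinge proteins, the latter from a gene without introns, so their reads cannot be told apart with certainty; they fell 1.46-fold and 1.75-fold.

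Cytochrome c, the mobile carrier between complexes III and IV, did not follow its neighbours. CYCS was at 1232, 1216 and 1230 FPKM in DMSO and at 1150, 1191 and 1230 FPKM after GK921, with overlapping groups. The log2 change was -0.043 ± 0.0271 SE (limma adjusted p = 0.174). It was called lower with median-ratio scaling, at -0.22, and without the third GK921 library, at -0.067 (limma adjusted p = 0.0438).

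Complex IV, cytochrome c oxidase, was varied. Of 15 tested nuclear subunits, 9 fell, 2 rose and 4 were not called, against 29.2% lower and 46.8% higher over all tested genes. COX7B (chrX:77899438-77907373) was at 637.1, 531.6 and 513.8 FPKM in DMSO and at 254.0, 248.3 and 243.8 FPKM after GK921. All GK921 values were under the lowest DMSO value by more than the spread in either group, a fall of 2.25-fold (log2 change -1.16 ± 0.0703 SE, limma adjusted p = 6.32e-07). Its paralog COX7B2, known chiefly from testis, was expressed at a lower level and fell alongside, from 70.2 ± 13.4 to 30.6 ± 4.7 FPKM. COX7C and COX6B1 fell 1.72-fold and 1.67-fold. COX5B (chr2:97646040-97648383), a zinc-binding subunit on the matrix side, went the other way. It was at 157.1, 152.9 and 170.4 FPKM in DMSO and at 232.7, 214.1 and 198.0 FPKM after GK921, without overlap, and rose 1.34-fold (log2 change 0.42 ± 0.0615 SE, limma adjusted p = 2.17e-04). COX5A, which joins COX4I1 early in the enzyme's assembly, fell from 176.3 ± 8.8 to 129.0 ± 4.21 FPKM.

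Several complex IV subunits come in paralogs, one common and one tied to a tissue or to oxygen supply. COX4I1 fell 1.18-fold from 334.8 ± 5.42 to 284.4 ± 15.1 FPKM, while the lung and hypoxia form COX4I2 was above 0 in 1 DMSO library alone, at 0.67 FPKM. COX6A1 was at 278.3 ± 14.2 and 268.3 ± 17.2 FPKM (limma adjusted p = 0.373), and the muscle form COX6A2 was listed at 0 throughout. COX7A2 fell from 121.8 ± 9.03 to 87.8 ± 11.2 FPKM, and the muscle form COX7A1 was at 1.71 ± 0.255 and 1.89 ± 2.14 FPKM. COX7A1 was not called (limma adjusted p = 0.763), but without the third GK921 library, its highest, it was called lower (limma adjusted p = 0.00968). COX8A fell 1.44-fold, and COX8C reached 0.97 FPKM in 1 GK921 library and was at 0 in the others. The testis form COX6B2 was at 0, 0 and 0.35 FPKM in DMSO and at 2.8, 0.79 and 2.85 FPKM after GK921. It was called higher (limma adjusted p = 0.00212) from values near 0, so no fold is given.

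NDUFA4 fell from 715.5 ± 7.63 to 600.1 ± 51.5 FPKM, a call lost with quantile normalization (limma adjusted p = 0.412). NDUFA4L2, its hypoxia-linked paralog, was at 12.7 ± 1.9 and 13 ± 1.96 FPKM and was not called. COX6C, the most abundant nuclear complex IV member, was at 718.2 ± 22 and 692.5 ± 34 FPKM (limma adjusted p = 0.233). Its direction depended on the scale, with a log2 change of -0.23 with median-ratio scaling and 0.17 with quantile normalization, each called. COX7A2L (chr2:42333546-42425088), related to COX7A2, links complexes III and IV into supercomplexes and is not a subunit of the free enzyme. It was at 195.0, 184.5 and 178.1 FPKM in DMSO and at 276.5, 295.6 and 286.6 FPKM after GK921. The groups lay far apart, and the rise was 1.54-fold (log2 change 0.62 ± 0.0408 SE, limma adjusted p = 1.09e-06).

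**Figure D2:**
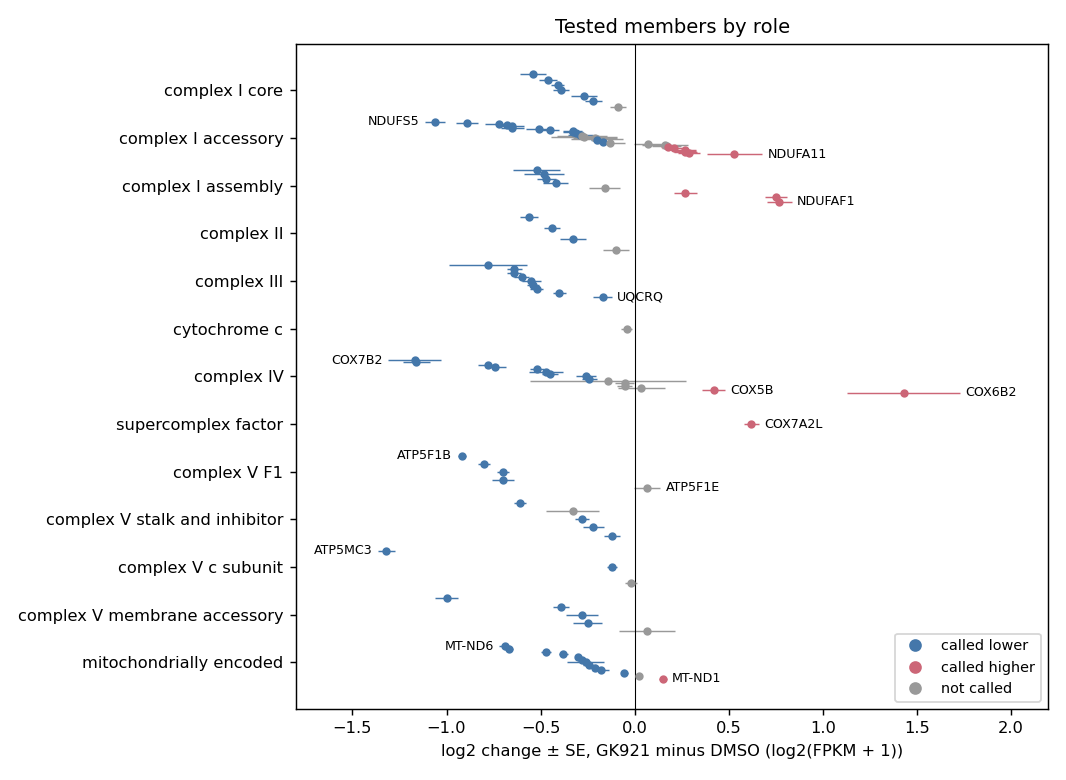
Log2 change after GK921 with its standard error (horizontal axis, log2(FPKM + 1) scale) for each tested member, grouped by role (vertical axis); blue marks members called lower, red those called higher and grey those not called at a limma adjusted p of 0.05. All complex III points lie left of 0, complex I accessory and assembly points lie on both sides, and ATP5MC3 at -1.32 is the lowest point.

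Complex V makes ATP. Of its 18 tested nuclear members, 14 fell, none rose and 4 were not called, against 29.2% lower and 46.8% higher over all tested genes. For these 18 members the median log2 change was -0.30. In F1, the catalytic head, 4 of 5 subunits fell. ATP5F1B (chr12:56638175-56646068), the catalytic beta subunit, was at 815.8, 806.6 and 816.6 FPKM in DMSO and at 427.2, 430.5 and 427.8 FPKM after GK921. The groups lay far apart relative to the spread in either, and the fall was 1.9-fold (log2 change -0.92 ± 0.0216 SE, limma adjusted p = 2.09e-09). The alpha subunit gene ATP5F1A fell 1.75-fold to 115.6 ± 0.866 FPKM. ATP5F1C and ATP5F1D, the gamma and delta subunits of the central stalk, fell 1.62-fold and 1.63-fold. The epsilon subunit gene ATP5F1E, the most abundant nuclear member of complex V, was at 1188, 1192 and 1257 FPKM in DMSO and at 1447, 1166 and 1214 FPKM after GK921. These groups overlapped and the call was not made (limma adjusted p = 0.404), although with quantile normalization it was called higher, at 0.17 (limma adjusted p = 0.0461).

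The c subunit, which forms the rotor ring in the membrane, is encoded by ATP5MC1, ATP5MC2 and ATP5MC3. Their precursors differ in the targeting peptide and give the same mature protein. ATP5MC3 (chr2:175176258-175184607) had the largest fall of all members, from 270.0, 258.2 and 281.5 FPKM in DMSO to 113.2, 105.1 and 105.2 FPKM after GK921. It fell 2.5-fold (log2 change -1.32 ± 0.0436 SE, limma adjusted p = 1.44e-08). ATP5MC2 (chr12:53632726-53677408) fell slightly, from 257.6 ± 5.59 to 236.3 ± 1.08 FPKM (limma adjusted p = 0.00303). ATP5MC1 (chr17:48892765-48895871) was at 118.6, 117.3 and 116.6 FPKM in DMSO and at 119.1, 112.7 and 116.3 FPKM after GK921. Its groups overlapped (limma adjusted p = 0.631), and with median-ratio scaling it was called lower at -0.19. The summed FPKM of the 3 genes went from 645.0 ± 12.9 to 460.2 ± 6.95. Within that sum the ATP5MC3 share went from 41.8% ± 1.16 to 23.4% ± 0.689, and ATP5MC2 rather than ATP5MC3 was then the most abundant of the 3.

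**Figure D3:**
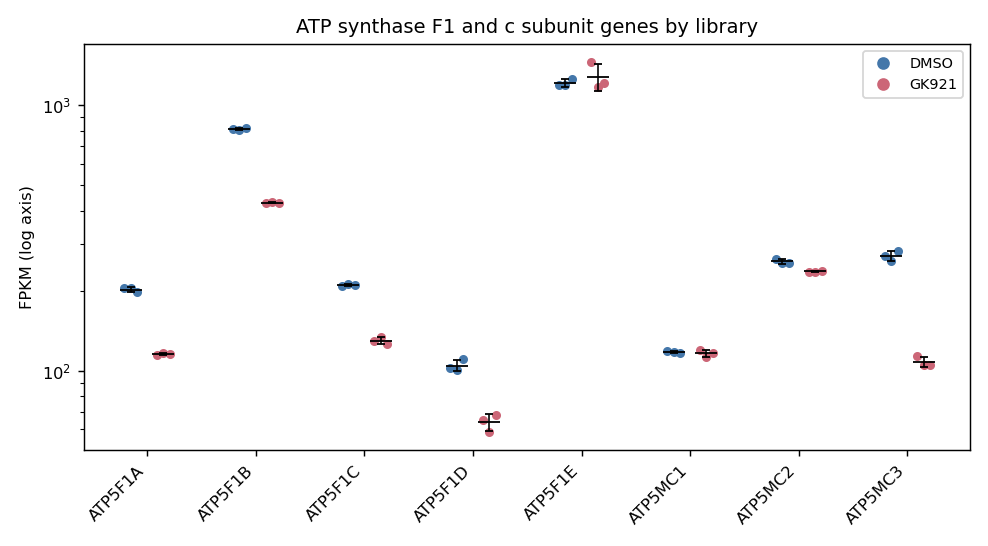
FPKM (vertical axis, log scale) of the 5 F1 and the 3 c subunit genes of ATP synthase in each DMSO (blue) and GK921 (red) library; black marks give the mean and SD of 3 libraries. The groups are separate for 6 genes and overlap for ATP5F1E and ATP5MC1, and ATP5MC3 moves from the level of ATP5MC2 to that of ATP5MC1.

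In the rest of complex V the peripheral stalk gene ATP5PB fell 1.53-fold from 228.1 ± 4.81 to 148.6 ± 4.53 FPKM. ATP5PF fell 1.21-fold. ATP5PD, the most abundant stalk gene, had overlapping groups and a log2 change of -0.12. Its call (limma adjusted p = 0.0224) was lost without the first or second DMSO library (0.0537 and 0.0806) and without GK921 replicate 2 (0.0752) or replicate 3 (0.0664). ATP5IF1, which blocks the enzyme when it runs in reverse, fell from 88.2 ± 2.48 to 75.5 ± 5.92 FPKM. Among the small membrane subunits, ATP5MF fell 2-fold, from 504.2 ± 14.5 to 252.5 ± 24.6 FPKM, and ATP5MK 1.31-fold. ATP5MG and ATP5MJ were called lower, and each lost its call without the second DMSO library (limma adjusted p = 0.0542 and 0.055). ATP5ME was at 69.8 ± 6.14 and 74.4 ± 16.7 FPKM and was not called, but without the second GK921 library it was called higher (limma adjusted p = 0.00848).

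The 13 mitochondrially encoded transcripts are cut from long RNAs that cover each strand of the small circular genome, so they share promoters. They were far more abundant than nuclear members, holding 10.2% ± 0.106 of all FPKM in DMSO and 8.98% ± 0.236 after GK921. By the limma test 11 fell and 1 rose, against 29.2% lower and 46.8% higher over all tested genes. The median log2 change of the 13 transcripts was -0.26. None fell 2-fold. The falls were unequal between transcripts. MT-ND6 (chrM:14149-14673), the 1 protein gene on the opposite strand, was at 1720, 1786 and 1731 FPKM in DMSO and at 1113, 1084 and 1043 FPKM after GK921. MT-ND5 (chrM:12337-14148), its neighbour, was at 2200, 2229 and 2184 FPKM in DMSO and at 1400, 1404 and 1341 FPKM after GK921. Both encode complex I subunits and fell by a like amount, 1.62-fold and 1.6-fold (log2 changes -0.69 ± 0.0286 and -0.67 ± 0.0239 SE, limma adjusted p = 5.26e-08 and 2.09e-08). The sources used here do not say whether counting used strand, so reads of MT-ND6 and of RNA from the other strand at that place cannot be told apart.

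MT-ATP6, a proton channel subunit of ATP synthase, fell 1.39-fold from 8625 ± 10.5 to 6226 ± 246.5 FPKM, and MT-ND2 of complex I fell 1.3-fold from 3676 ± 62.1 to 2824 ± 71.8 FPKM. The complex III cytochrome MT-CYB fell 1.22-fold. The oxidase genes were unlike one another: MT-CO3 fell 1.23-fold and MT-CO2 1.16-fold, while MT-CO1, the most abundant member, was at 13477, 13704 and 13528 FPKM in DMSO and at 13929, 13947 and 13455 FPKM after GK921. Its groups overlapped (limma adjusted p = 0.323), and its log2 change was 0.022 as deposited. MT-CO1 was called lower with median-ratio scaling, at -0.15, and higher with quantile normalization, at 0.04 (limma adjusted p = 1.18e-04 and 0.00261). MT-ND1 was the 1 transcript called higher, from 3864, 3941 and 3981 FPKM in DMSO to 4422, 4387 and 4294 FPKM after GK921 (log2 change 0.15 ± 0.0202 SE, limma adjusted p = 1.14e-04). With median-ratio scaling its change was -0.023 and not called. The ratio of MT-ND1 to MT-ND2, neighbours on one strand, needs no scaling between libraries and went from 1.07 ± 0.0304 to 1.55 ± 0.0206.

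The remaining mitochondrial falls were small. MT-ND4L and MT-ATP8 fell by 0.18 and 0.24 on the log2 scale. MT-ATP8 shares 22.2% of its bases with MT-ATP6. MT-ND4 fell by 0.055 on the log2 scale, and its call was lost without the third DMSO library (limma adjusted p = 0.0659) or the third GK921 library (0.0558). MT-ND3 was at 1883 FPKM in the first GK921 library, among the DMSO values, and at 1502 and 1355 FPKM in the others. Its call (limma adjusted p = 0.0385) was lost when any of the 3 DMSO libraries (0.0674, 0.0973 and 0.0707), GK921 replicate 2 (0.106) or GK921 replicate 3 (0.122) was left out. With quantile normalization, in which the few most abundant genes take values by rank, 8 of the 13 were lower and 3 higher. MT-ND2, MT-CYB and MT-ATP8 then had log2 changes of 0.029, 0.036 and 0.24.

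**Figure D4:**
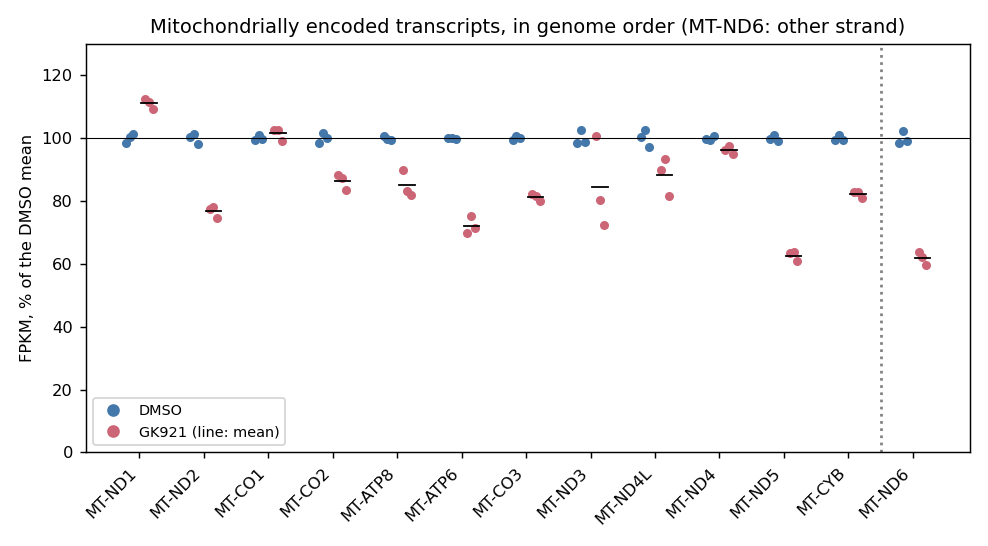
FPKM of each mitochondrially encoded transcript in each library as a percentage of its DMSO mean (vertical axis); blue points are DMSO, red points GK921, black lines the GK921 means, and genes follow their order in the mitochondrial genome with MT-ND6, from the other strand, at the right. MT-ND5 and MT-ND6 lie lowest, MT-ND1 lies above 100% on this deposited scale but not with median-ratio scaling, and there is no steady rise or fall along the order.

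Summed over genes, the nuclear side was lower by a larger share than the mitochondrial side. The nuclear-encoded members together went from 17592 ± 152.1 to 13958 ± 476.9 FPKM, a change of -20.7%, and the mitochondrially encoded members from 85068 ± 723.5 to 74202 ± 1999 FPKM, a change of -12.8%. The ratio of the mitochondrial to the nuclear sum was 4.78, 4.93 and 4.79 in DMSO and 5.19, 5.54 and 5.22 after GK921, without overlap. The nuclear sums by complex leave out the complex I assembly factors, COX7A2L and ATP5IF1, which the nuclear total includes. By complex, the change of the nuclear sum and of the mitochondrial sum was -19.1% and -11.6% for complex I, -28.3% and -17.8% for complex III, and -24.5% and -9.73% for complex IV. For complex V they were -24.2% and -24%, nearly the same. Complex II, wholly nuclear, changed by -22.2%. A sum is led by its most abundant genes, and no p is given for it. In bulk RNA, fewer cells of a kind and less RNA per cell cannot be told apart, and a change of total RNA per cell does not show in FPKM.

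Some members had values too low for subunits that every complex needs. UQCR11 was listed at 0 in all libraries and NDUFA7 in all but 1, at 0.22 FPKM there. NDUFA11 was at 2.54 FPKM on average in DMSO, NDUFB8 at 6.33, NDUFA9 at 8.24, NDUFA13 at 11.8 and ATP5PO at 12.9. In GENCODE release 29 (GRCh38), each of these 7 genes shares coding bases with another coding gene on the same strand, 36.9% of them in NDUFA11, 85.2% in NDUFB8, 67.9% in NDUFA9 and all of them in UQCR11. Altogether 14 nuclear members shared at least 20% of their coding bases in this way, with a median of 12.4 FPKM in DMSO, against 113 FPKM for the 84 that did not. The rest of the 14 were NDUFC2, SDHD, COX6A1, COX6B2, COX8A, ATP5MF and ATP5MG. Some of these, such as COX8A and ATP5MF, were abundant. The sources used here do not say how reads in shared exons were counted, and the part of this overlap in the values was not tested. Of the 7 genes named first, NDUFA11 alone was called on the deposited scale, and the values of all 14 are uncertain. With median-ratio scaling and with quantile normalization NDUFA9, NDUFA13 and ATP5PO were called lower. With quantile normalization NDUFB8 was called lower too, and NDUFA11 lost its call. NDUFB8 was called lower without the third GK921 library and ATP5PO without the second DMSO library (limma adjusted p = 0.00522 and 0.0234). Among the 92 tested members outside such overlap and outside MT-ATP8, 65 were lower and 12 higher. Over all tested genes 29.2% were lower and 46.8% higher. Overlap with genes on the other strand was left aside in that count of 92 members. It covered, for example, 49.1% of the exon bases of NDUFS7, 44.5% in NDUFA1, 44.9% in NDUFB11 and 61.6% in ATP5ME. Whether counting used strand is not stated, and the part of this overlap in their values was not tested.

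The first GK921 library stood slightly apart within its group for these genes. It held the highest of the 3 GK921 values in 53 of 105 tested members (50.5%), against 32.3% of all tested genes. Its relative depth was 0.763, against 0.774 for GK921 replicate 2, too close for this measure to rank the 2. Without the first GK921 library 75 members were lower and 12 higher. NDUFC1, NDUFB10, NDUFA9, NDUFAF7 and COX6C, not called in the full set, were then called lower.

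Among factors that act beside the subunits, those that copy, transcribe and process mitochondrial RNA mostly fell, with 29.2% lower and 46.8% higher over all tested genes. Of 15 genes of mitochondrial DNA transcription and copying, 8 fell and 1 rose (median log2 change -0.19). TFAM, which packages mitochondrial DNA and starts its transcription, fell by 0.52 on the log2 scale from 62.8 ± 1.21 FPKM, while POLRMT, the mitochondrial RNA polymerase, was at 12.2 ± 0.588 and 12.1 ± 0.861 FPKM (limma adjusted p = 0.862). With quantile normalization POLRMT was called lower, at -0.19 (limma adjusted p = 0.0444). The nuclease MGME1 and the DNA polymerase subunit POLG fell by 1.18 and 0.87 on the log2 scale, and POLG2, the other polymerase subunit, rose 1.56-fold. Of 18 tested genes of mitochondrial RNA processing and decay, 12 fell and 4 rose (median -0.34). PTCD3, which binds the small mitochondrial ribosomal subunit, fell from 48.6 ± 0.886 to 18.7 ± 2.15 FPKM. ELAC2, which cuts transfer RNAs out of the long precursors, fell by 0.84 on the log2 scale, and LRPPRC, which stabilises mitochondrial messenger RNAs, fell from 109.4 ± 0.963 to 65.9 ± 0.902 FPKM. SUPV3L1, the helicase of RNA decay, rose 1.95-fold.

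Assembly factors outside the NDUFAF family moved both ways for each complex, as genes did in general (29.2% lower and 46.8% higher over all tested genes). For complex I, 4 fell and 6 rose among 13, shares near those of all genes on the deposited scale. With median-ratio scaling 7 of the 13 were lower and 5 higher. DMAC1 and FOXRED1 fell, to 29 ± 3.45 and 32.4 ± 2.47 FPKM, and ECSIT, a partner of NDUFAF1, rose 1.41-fold. TMEM126B and TIMMDC1, which act with NDUFAF1 on the membrane arm, rose 1.18-fold and 1.39-fold, the first a call lost with median-ratio scaling (limma adjusted p = 0.391). For complex II, 1 of 4 fell, SDHAF3, and 1 rose, SDHAF1 (limma adjusted p = 0.0436, with overlapping groups). The SDHAF1 call was lost with median-ratio scaling (0.231), with quantile normalization (0.226) and without DMSO replicate 2 (0.119), GK921 replicate 2 (0.135) or GK921 replicate 3 (0.102). For complex III, 2 of 7 fell, TTC19 by 0.49 and BCS1L by 0.23 on the log2 scale, and LYRM7 rose 1.44-fold. The LYRM7 call was lost with median-ratio scaling (limma adjusted p = 0.0727), and that of BCS1L without DMSO replicates 2 or 3 (0.089 and 0.159) or GK921 replicates 2 or 3 (0.11 and 0.137). For complex IV, 10 of 24 fell and 9 rose. Besides LRPPRC, COX16 fell from 34.4 ± 4.25 to 20.7 ± 2.58 FPKM, and COX19 rose from 22.4 ± 1.91 to 44.1 ± 5 FPKM. With median-ratio scaling 12 of these were lower and 3 higher. For complex V, ATPAF1 fell and TMEM242, ATPAF2 and DMAC2L rose. The DMAC2L call was lost with median-ratio scaling (limma adjusted p = 0.42), with quantile normalization (0.505) and without DMSO replicates 1 or 2 (0.0569 and 0.0903) or GK921 replicates 1 or 3 (0.0864 and 0.0549).

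Genes for the cofactors of the chain moved in shares near those of all tested genes, of which 46.8% were higher and 29.2% lower. Of 18 iron-sulfur cluster genes, 9 rose and 4 fell (median log2 change 0.20, against 0.16 over all genes). ISCU, the scaffold on which clusters form, rose from 124.3 ± 4.83 to 265.2 ± 2.62 FPKM, and its co-chaperone HSCB rose 2.29-fold. IBA57, a late factor for 4Fe-4S clusters, fell from 4.03 ± 0.337 to 1.18 ± 0.0777 FPKM. With median-ratio scaling 6 of these genes were higher and 8 lower. Of 13 coenzyme Q genes, 6 rose and 3 fell. The 3 falls were PDSS1 and COQ2, which make and attach the isoprenoid tail, and COQ3, a ring methyltransferase, and PDSS1 had the largest, from 15.9 ± 1.41 to 4.26 ± 0.541 FPKM. COQ5, another methyltransferase, rose 1.65-fold.

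Of 9 other enzymes that feed electrons to coenzyme Q, 5 fell and 2 rose, against 29.2% lower and 46.8% higher over all tested genes. The proline enzyme PRODH fell by 1.43 and the electron-transfer flavoprotein gene ETFB by 0.88 on the log2 scale, and SQOR, which oxidizes sulfide, rose 1.45-fold. Of 9 tested carrier and VDAC channel genes, 5 fell and 2 rose, set against the same shares of all tested genes. The falls included VDAC1 and VDAC3, and the rises VDAC2. SLC25A3, which brings in the phosphate that ATP synthase uses, fell from 572.9 ± 13.4 to 133.1 ± 5.63 FPKM, a larger change than that of any respiratory chain member. SLC25A5, the main ADP/ATP exchanger here, fell from 823.5 ± 14.2 to 382.1 ± 12.1 FPKM, while its paralog SLC25A6 was at 352.4 ± 4.6 and 342.0 ± 7.8 FPKM (limma adjusted p = 0.178). With median-ratio scaling SLC25A6 was called lower, at -0.22. SLC25A25, a calcium-regulated carrier, rose 1.67-fold.

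**Figure D5:**
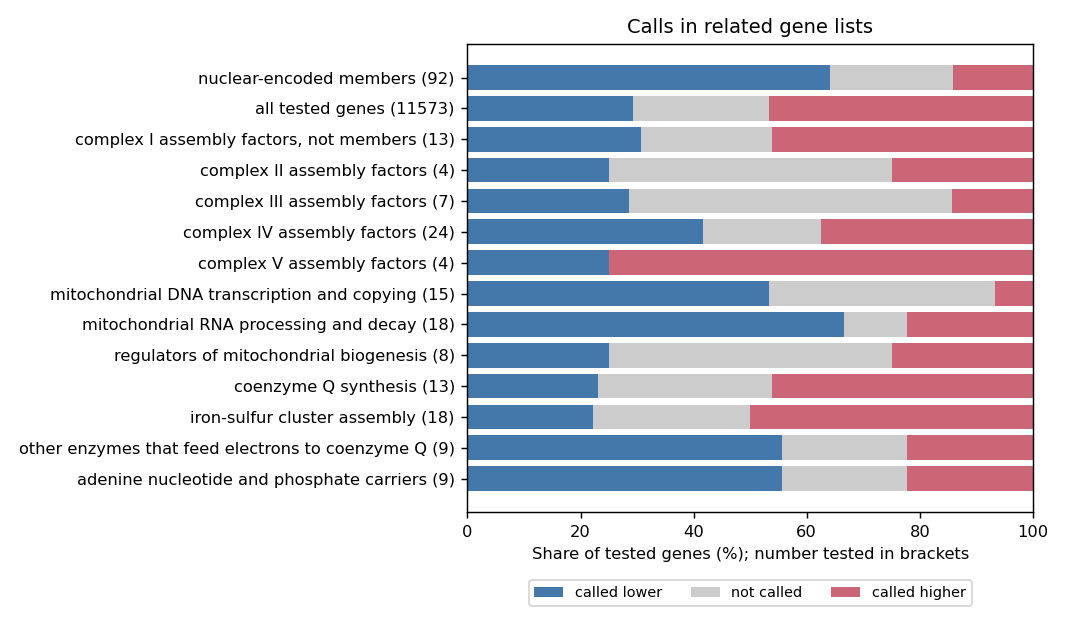
Share of tested genes (horizontal axis, %) called lower (blue), not called (grey) and called higher (red) after GK921, for the nuclear-encoded members, all tested genes and 12 related lists (vertical axis, number tested in brackets). Calls are on the deposited scale. Blue fills 64.1% of the bar of nuclear-encoded members and 29.2% of the bar of all genes. Among the related lists red exceeds blue, as over all genes, for complex I assembly, complex V assembly, coenzyme Q synthesis and iron-sulfur cluster assembly.

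The transcription factors and coactivators known to drive nuclear respiratory genes moved both ways in mRNA level. Of 8 tested genes, 2 were lower and 2 higher, against 29.2% and 46.8% of all tested genes. NRF1, nuclear respiratory factor 1, was at 7.03 ± 0.448 and 7.63 ± 0.946 FPKM (limma adjusted p = 0.389). GABPA, the DNA-binding subunit of nuclear respiratory factor 2, an ETS family factor, was at 20.6 ± 1.33 and 21.0 ± 0.962 FPKM (limma adjusted p = 0.711), and its partner GABPB1 rose 1.41-fold. YY1 rose 1.26-fold, and ESRRA and PPRC1 fell by 0.35 and 0.16 on the log2 scale. The PPRC1 call was lost without DMSO replicates 1 or 2 (limma adjusted p = 0.0769 and 0.0697) or GK921 replicates 2 or 3 (0.0664 and 0.0672). The coactivator PPARGC1A was listed at 0 in every library.

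Promoter windows from RefSeq (GRCh38.p14, 250 bases before to 50 after the start) were found for 78 of 98 nuclear members, taking the first listed window of a gene. They were searched on both strands for the NRF1 motif, GCGCA and GCGC with any base between them, for CCGGAAG (ETS factors) and for AANATGGCG (YY1). Matches of different motifs do not overlap in the windows shown. The NRF1 letters stood in 23.1% of the members' windows, against 12.2% of 9371 windows of tested genes and 6.28% of all 27305 windows. The ETS letters stood in 26.9%, 20.4% and 10.7% of these windows, and the YY1 letters in 20.5%, 7.36% and 3.37%. Members that fell held the NRF1, ETS and YY1 letters in 9, 13 and 10 of 45 windows, and members that rose in 2, 1 and 2 of 12. Members not called held them in 5, 6 and 3 of 17. Among these groups the NRF1 and ETS letters were most frequent in members not called. The ETS letters stood in 28.9% of the falls and 8.33% of the rises. The YY1 letters were most frequent in the falls, at 22.2%, against 16.7% of the rises and 17.6% of members not called. The groups are small, and a link between letters and calls was not tested. A match is a description of the sequence and shows no binding. The 4 windows below are shown because the NRF1 and the ETS motif each occur both at a member that fell and at one that rose, with the motif in capitals, in the direction of transcription. ATP5F1C (chr10:7787927-7788226, plus strand) fell and NDUFA12 (chr12:95003648-95003947, minus strand) rose on the deposited scale but not with median-ratio scaling, each with an NRF1 match, starting 22 and 116 bases before the transcript start. COX6B1 (chr19:35648073-35648372, plus strand) fell and COX5B (chr2:97645812-97646111, plus strand) rose, with an ETS match starting 12 bases before the start in the first, on the opposite strand, and 37 and 5 bases before it in the second.
ATP5F1C: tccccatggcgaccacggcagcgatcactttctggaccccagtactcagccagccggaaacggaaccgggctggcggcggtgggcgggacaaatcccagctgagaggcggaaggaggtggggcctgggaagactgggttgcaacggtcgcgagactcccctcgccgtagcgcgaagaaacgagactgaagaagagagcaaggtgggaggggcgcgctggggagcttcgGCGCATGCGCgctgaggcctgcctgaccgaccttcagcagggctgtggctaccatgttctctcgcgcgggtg
NDUFA12: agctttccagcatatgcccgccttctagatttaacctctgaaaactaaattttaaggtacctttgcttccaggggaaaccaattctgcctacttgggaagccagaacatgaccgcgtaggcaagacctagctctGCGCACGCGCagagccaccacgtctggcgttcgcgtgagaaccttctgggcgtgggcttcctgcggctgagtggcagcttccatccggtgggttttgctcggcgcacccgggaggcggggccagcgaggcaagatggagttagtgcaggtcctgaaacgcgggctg
COX6B1: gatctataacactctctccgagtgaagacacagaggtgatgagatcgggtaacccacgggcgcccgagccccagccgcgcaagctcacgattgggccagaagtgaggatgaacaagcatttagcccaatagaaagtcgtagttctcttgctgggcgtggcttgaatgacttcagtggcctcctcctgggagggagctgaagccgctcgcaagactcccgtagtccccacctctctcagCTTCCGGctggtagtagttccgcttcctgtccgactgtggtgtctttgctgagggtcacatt
COX5B: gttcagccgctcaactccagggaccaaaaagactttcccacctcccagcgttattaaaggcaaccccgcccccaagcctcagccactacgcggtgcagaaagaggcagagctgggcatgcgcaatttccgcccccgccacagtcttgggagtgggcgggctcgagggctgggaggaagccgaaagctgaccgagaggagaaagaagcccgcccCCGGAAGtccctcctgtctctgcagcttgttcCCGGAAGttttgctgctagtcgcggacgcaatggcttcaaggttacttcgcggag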

How the data were processed

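Total RNA of 6 MHCC-97H libraries, 3 with DMSO and 3 with GK921, was isolated with Trizol and made into libraries by Illumina protocols, per the labels' protocols. The authors deposited a table named as FPKM, with 1 row per gene symbol and 2 decimals. Per the submitters' processing notes, hg38 is named as a genome build and edgeR, featureCounts, HISAT2 and FastQC 0.11.5 as tools, without the step each served. Annotation, strand use and read totals: not given in the sources used here.

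Groups came from the sample titles. FPKM values were used as deposited, on log2(FPKM + 1), in limma 3.58.1 (R 4.3.3) with treatment as the only term and an intensity trend, for genes averaging 1 FPKM or more. Calls need a Benjamini-Hochberg adjusted p under 0.05 over all 11573 tested genes. A log2 change understates that of low genes, and folds are ratios of mean FPKM. The fit was tested on simulated data. Of 113 members, 105 passed the limit. Equal values in a pair of same-group libraries made up 0.389% of tested genes or less, so no library repeats another. Such a check cannot tell separate cultures from technical repeats. Each library was counted as 1 replicate.

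Each role group is described by up to 3 falls and 2 rises of largest change among called members, its most abundant member and its paralogs, and related lists by up to 2 falls and 1 rise. Further genes were named after their values were seen. Members and lists were chosen with earlier results of these data known. Positions and overlaps came from GENCODE release 29 (GRCh38), in which all 113 members were matched, 2 by an older symbol, and promoters from RefSeq; the values may rest on another annotation. Alternatives were the pseudocount, the expression limit, 3 scalings, the replicate number as a block, no trend, a test against a 1.2-fold change and leaving out each library. Counting members without shared coding bases was added after seeing the data. Values of some genes are not reported here.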

Additional observations from a re-analysis of the deposited data

How the results depend on the processing

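The 70 members called lower ranged from 67 to 75, and the 14 called higher from 12 to 16, when each library was left out in turn (84 called in all, with 80 to 87 over the same fits). The test against a 1.2-fold change, which asks more of each gene, called 42 members lower and 5 higher, 47 in all, with 53 related-list genes in place of 102 and 5730 genes in place of 8789. With median-ratio scaling 6 members were higher. The summed levels then changed by -22.8% for mitochondrially encoded members and -29.8% for nuclear-encoded members, in place of -12.8% and -20.7%. In every alternative that gave them a value, 41 of the 70 falls and 5 of the 14 rises kept their direction and call. One of these rises, COX6B2, had no value at a limit of 5 FPKM or without GK921 replicate 1 or 3, where its mean was under the limit. Among members called on the deposited or the other scale, the direction turned for COX6C (0.17), MT-ND2 (0.029), MT-CYB (0.036) and MT-ATP8 (0.24) with quantile normalization, and for MT-ND1 (-0.023) and MT-CO1 (-0.15) with median-ratio scaling; the cause was not tested. With a replicate block 71 members were lower and 15 higher, since ATP5PO and NDUFA1 were then called by limma (adjusted p = 0.00924 and 0.0198). The numbers did not pair the libraries: same-numbered libraries correlated in their deviations at 0.0305, 0.0473 and -0.00207, and not every library correlated best with its own number. Depth is known in relative terms alone, so values near 0, such as those of COX6B2, carry no counting interval.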
